A study of Arabidopsis thaliana with 6 samples.

Results

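The data described here were the genomic regions in which acetylation of histone H3 at lysines K9 and K14 (H3K9/K14ac) differed between Arabidopsis thaliana seedlings with induced WUSCHEL (WUS) and seedlings without it. The members were the 500 bp windows of the list of gained acetylation and of the list of lost acetylation. Adjoining windows were merged, gained and lost regions closer than 73 bp to each other were removed, and each remaining region was assigned by its midpoint to a TAIR10 gene, counting the gene body, 2500 bp upstream and 1000 bp downstream. Before removal these windows were 24749 of the 86611 windows in the 6 position lists of the series. The removal for closeness took out 3949 of 9436 merged gained regions (41.9%) and 3936 of 9046 merged lost regions (43.5%). This left 10597 regions, of which 5487 were gained and 5110 were lost. The other lists give the binding of the induced WUS protein, the matching control precipitation, and gained and lost H3K27me3.

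Both groups were whole seedlings, 5 days after germination, and per their labels both received 25 µM dexamethasone for 2 h. The gained list belongs to the WUS-GR line, pUBI10::mCherry-GR-linker-WUS, in which the WUS coding sequence is fused with mCherry and with a glucocorticoid receptor domain, so that the protein enters the nucleus when the steroid is given. The lost list belongs to the wild type Col-0, which carries no transgene. WUS-GR was 1 homozygous line with a single insertion, and its ubiquitin promoter drives WUS throughout the seedling and not only in the stem cell niche. Each group had 1 list, the lists hold positions without scores or read depth, and no comparison has a replicate check. The values below are therefore counts and shares without p-values, and their 95% Wilson intervals take in the error of counting alone. Cell type markers cannot be checked with lists of changed positions, and a change within a few cell types cannot be told apart from a change in the proportion of those cells.

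Acetyl groups on the tail of histone H3 are added by histone acetyltransferases and removed by histone deacetylases, and in plants H3K9/K14ac is a mark of the early part of active genes. WUS is a homeodomain transcription factor that keeps the stem cells of the shoot apex. It binds co-repressors of the TOPLESS family, which in turn work with histone deacetylases.

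Among 27444 protein-coding genes, 4970 carried gained acetylation, which was 18.1% of those tested, and 4419 carried lost acetylation, which was 16.1%. Both directions were found in 595 genes, or 2.17%. Gained regions covered 3.81 Mb, or 3.19% of the nuclear genome, and lost regions 3.32 Mb, or 2.78%. Single windows made up 3949 gained regions (72.0%) and 3940 lost regions (77.1%), whereas 37 gained and 18 lost regions reached 2500 bp or more. For 3285 of the genes with gain and 3083 of the genes with loss the change therefore amounted to 500 bp. A region extended over the bodies of 2 or more coding genes in 537 gained cases (9.79%) and in 324 lost cases (6.34%), and the midpoint then decided which gene received it.

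Sequences upstream of 5 genes are given here as examples of 3 situations described further on. These are ribosomal protein genes with gain, the gene with the longest gained region over its promoter, and a gene whose promoter lay wholly in a lost region. The stretches are the 250 bases before the annotated gene start, written 5′ to 3′ on the strand of the gene, from the RefSeq copy of the TAIR10 nuclear sequence, and none of them overlaps an annotated exon. Capitals mark the telo-box (AAACCCTA) and the site II element (TGGGCC) in the ribosomal protein genes. In the other genes they mark any of the 8 words searched, read on both strands. All 3 ribosomal protein genes shown hold both words and are not typical in this. Among the 90 ribosomal protein genes with gain, 16.7% held the telo-box and 48.9% the site II element.
AT3G51190: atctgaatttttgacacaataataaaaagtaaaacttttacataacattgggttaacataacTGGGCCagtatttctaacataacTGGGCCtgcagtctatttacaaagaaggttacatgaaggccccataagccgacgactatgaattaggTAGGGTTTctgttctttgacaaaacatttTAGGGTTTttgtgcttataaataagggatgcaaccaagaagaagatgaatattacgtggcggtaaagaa
AT1G18540: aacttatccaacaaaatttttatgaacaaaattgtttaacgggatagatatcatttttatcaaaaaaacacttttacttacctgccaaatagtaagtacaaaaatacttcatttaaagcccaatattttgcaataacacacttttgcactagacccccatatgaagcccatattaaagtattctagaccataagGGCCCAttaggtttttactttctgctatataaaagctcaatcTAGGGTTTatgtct
AT2G47570: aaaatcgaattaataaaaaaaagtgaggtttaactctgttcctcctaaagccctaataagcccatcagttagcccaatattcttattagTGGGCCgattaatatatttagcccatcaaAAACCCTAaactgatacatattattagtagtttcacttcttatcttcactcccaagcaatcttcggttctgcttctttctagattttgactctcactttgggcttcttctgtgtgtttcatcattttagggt
GRP3S: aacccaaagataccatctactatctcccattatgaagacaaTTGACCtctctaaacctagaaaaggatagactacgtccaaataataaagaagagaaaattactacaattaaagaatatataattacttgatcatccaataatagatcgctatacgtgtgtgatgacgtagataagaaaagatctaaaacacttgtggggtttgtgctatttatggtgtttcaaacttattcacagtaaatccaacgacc
CAO: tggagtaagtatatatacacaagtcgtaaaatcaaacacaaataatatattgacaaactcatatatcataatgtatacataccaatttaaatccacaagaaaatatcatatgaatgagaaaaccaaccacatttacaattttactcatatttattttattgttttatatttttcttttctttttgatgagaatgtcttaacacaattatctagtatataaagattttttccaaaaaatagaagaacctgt

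AT3G51190 (chr3:19017548-19017797, minus strand) encodes a protein of the ribosomal protein L2 family, AT1G18540 (chr1:6378581-6378830, minus strand) one of the L6 family, and AT2G47570 (chr2:19516923-19517172, minus strand) a 60S ribosomal protein L18. All 250 bases before AT3G51190 and AT1G18540 lay in gained regions, as did 78 bases before AT2G47570. The stretch before GRP3S (chr2:1966360-1966609, plus strand), which encodes a glycine-rich protein, was gained in full and held a W-box (TTGACC). The stretch before CAO (chr2:19472323-19472572, plus strand), which encodes a component of the chloroplast signal recognition particle, was lost in full, and none of the 8 words was in it. Its GC content of 22.8% was the lowest of the 5.

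The distribution over gene parts differed between gain and loss. The midpoints of gained regions lay in coding sequence in 56.4% (3092 of 5487, Wilson interval 55.0 to 57.7%) and those of lost regions in 45.7% (2336 of 5110, 44.4 to 47.1%). Introns held 22.6% of the gained and 25.6% of the lost midpoints, and 5′ UTRs 9.40% and 8.71%. Lost regions were more often upstream of a gene, with 478 cases (9.35%, interval 8.59 to 10.2%) against 261 for gained regions (4.76%, 4.22 to 5.35%). They were also more often downstream of the gene end, in 86 cases (1.68%) against 30 (0.547%), and outside any gene window, in 59 cases against 21. When a gene had both directions, their order along the gene was even. The gained part lay nearer the gene start in 301 of the 595 genes and the lost part in 294.

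Gene length moved with both directions. In the shortest decile of coding genes, with a median length of 528 bp, 3.28% had gain and 3.97% had loss, and in the longest decile, with a median of 5275 bp, the shares were 25.9% and 28.8%. Gain was the more frequent direction in deciles 2 to 9 and loss in deciles 1 and 10. Because families differ in length, the family shares below are set beside the share that all coding genes of the same length deciles would give, called the share at the same lengths.

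**Figure D1:**
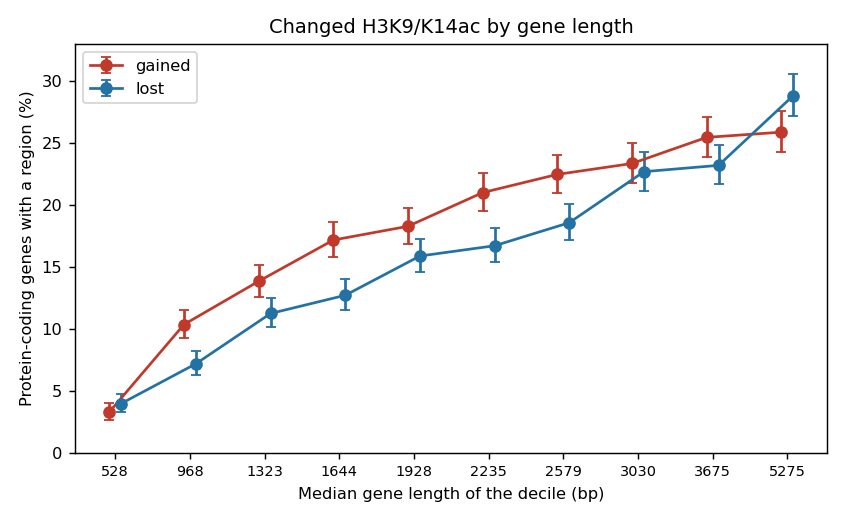
Share of protein-coding genes (vertical axis, %) with a gained (red) or a lost (blue) H3K9/K14ac region in the 10 deciles of gene length, labelled by the median length in bp; bars are 95% Wilson intervals. The shares go from 3.28% and 3.97% in the shortest decile to 25.9% and 28.8% in the longest.

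The genes were sorted into 58 families by their RefSeq product names or locus lists, which together took in 6612 coding genes. Of the 54 families with at least 25 members, the interval of the gained share lay above the share of all coding genes in 5 and below it in 11, and that of the lost share lay above in 6 and below in 9. These counts do not take gene length into account. Among the families above, only ribosomal proteins for gain and WRKY factors for loss also had an interval above their share at the same lengths. With this many families some intervals miss the overall share by chance, and no family was tested.

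Among genes for translation, gain was frequent at ribosomal protein genes. Gained acetylation was found at 90 of 325 ribosomal protein genes (27.7%, interval 23.1 to 32.8%), against 18.1% of all coding genes and 15.4% of genes of the same lengths. Loss was found at 45 of them (13.8%), close to the 12.2% of genes of the same lengths. The largest gains were 1500 bp each and covered most of the gene: 100% of AT2G27710, an acidic protein of the large subunit, 95.3% of AT5G62300 of the S10p/S20e family, 90.5% of AT4G17390 of the L23/L15e family and 72.3% of AT2G31610 of the S3 family. The median midpoint of the 92 gained regions was 530 bp after the gene start, and 81.5% of these midpoints lay between 250 bp before and 1000 bp after it.

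The promoter words shown above went with the ribosomal protein family, at like shares for members with and without gain. The site II element occurred in the 250 bases before 148 of 325 ribosomal protein genes (45.5%), before 44 of the 90 with gain (48.9%, interval 38.8 to 59.1%) and before 104 of the 235 without (44.3%, 38.1 to 50.7%). All coding genes had it in 13.7%, the genes with gain in 16.5% and the genes with loss in 14.9%. The telo-box was before 16.7% of the ribosomal protein genes with gain and 16.6% of those without, against 4.49% of all coding genes, 3.36% of genes with gain and 3.76% of genes with loss. A WUS-GR binding region was assigned to only 8.92% of ribosomal protein genes, compared with 23.1% of all coding genes.

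Translation initiation and elongation factors had the same share in both directions, with 24 of 90 gained and 24 of 90 lost (26.7% each, 18.6 to 36.6%). This interval lay above the shares of all coding genes but included the shares at the same lengths, 21.3% for gain and 19.3% for loss. AT5G19510 of the EF1B family had the most gained bases for its size (1500 bp, 84.4% of the gene), and SCO1, a chloroplast elongation factor G, had the most lost bases (2000 bp, 64.6%). AT4G11160, a translation initiation factor 2 gene, carried 1500 gained and 500 lost bases. Aminoacyl-tRNA synthetases, which charge tRNAs, had gain at 7 of 55 (12.7%, 6.30 to 24.0%, 21.3% at the same lengths) and loss at 9 (16.4%, 20.4% at the same lengths).

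Gain was more frequent than loss at the genes of the photosynthetic light reactions and about as frequent at those of the Calvin cycle. Of 27 genes for light-harvesting chlorophyll-binding proteins, which collect light for the photosystems, 7 had gain (25.9%, 13.2 to 44.7%) and 2 had loss. Among 30 photosystem subunit genes 8 had gain (26.7%, 14.2 to 44.4%) and 3 had loss. The shares of gain at the same lengths were 15.6% and 13.5%. LHCB4.1, a minor antenna protein of photosystem II, had the widest gain, of 1500 bp at chr5:209001-210500 or 89.1% of its body. PSAH-1 and PSAG, subunits of photosystem I, had 1000 and 500 gained bases. Calvin cycle and rubisco genes, which fix carbon, had gain at 6 and loss at 5 of 25 (24.0% and 20.0%, 20.8% and 17.9% at the same lengths). The intervals of the gained share of all 3 families include the overall 18.1%.

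Transcription factor families differed from one another. AP2/ERF genes, which include the mediators of ethylene responses, had gain at 25 of 104 (24.0%, 16.8 to 33.1%, 14.01% at the same lengths) and loss at 15 (14.4%). The repressors ERF4 and ERF11 had 1500 gained bases each, over 95.1% and 81.2% of their bodies. Both also had a WUS-GR region, as had 51.9% of the family. WRKY genes, many of which act in defence, had loss at 18 of 72 (25.0%, 16.4 to 36.1%, 15.8% at the same lengths) and gain at 16 (22.2%). WRKY40 lost 1000 bp upstream (chr1:30381501-30382500) and 1000 bp over its start (chr1:30383501-30384500), and WRKY53 lost 1000 bp at chr4:12393001-12394000. TTG2, the WRKY factor of trichome and seed coat development, gained 2000 bp, and WRKY17 and WRKY3 gained 1500 bp each. These 3 genes are on chromosome 2, and without that chromosome the WRKY share of gain was 16.1%, below the 17.5% of all coding genes.

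MADS-box genes had few changes in either direction, with 7 of 120 gained (5.83%, 2.85 to 11.6%) and 10 lost (8.33%, 4.59 to 14.7%), against 15.5% and 13.6% at the same lengths. Among the 7 were AGL6 and AGL24, regulators of flowering, with 500 gained bases each. MYB genes had gain at 13 of 129 (10.1%, 5.98 to 16.5%, 17.7% at the same lengths) and loss at 19 (14.7%, as at the same lengths). MYB73 had the most gained bases of the MYB genes, 1000 bp.

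Among signalling genes, the JAZ and TIFY proteins, which repress jasmonate responses, had gain at 6 of 16 (37.5%, 18.5 to 61.4%, 20.4% at the same lengths) and loss at 2. JAZ5 and JAZ3 gained 1500 bp each, JAZ12 and TIFY7 1000 bp each. MAP kinase cascade genes had gain at 13 of 46 (28.3%, 17.3 to 42.6%, 20.1% at the same lengths), with MKK4 gaining 1500 bp in 2 regions. Type 2C protein phosphatases, which include the inhibitors of abscisic acid signalling, leaned to loss, with 16 of 64 (25.0%, 16.0 to 36.8%, 18.5% at the same lengths) against 10 gained. Resistance proteins of the NBS-LRR type had loss at 37 of 159 (23.3%), but genes of their lengths had 24.8%, and their gain of 17.6% compared with 24.4%. RPP13, a downy mildew resistance gene, lost 1500 bp. Receptor-like and leucine-rich repeat kinases likewise had loss at 76 of 376 (20.2%), against 21.8% at their lengths, and HERK1, a receptor kinase of cell growth, lost 2000 bp.

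Transporter families differed in direction. Major facilitator and sugar transporters had loss at 42 of 177 genes (23.7%, 18.1 to 30.5%) and gain at 22 (12.4%, 8.35 to 18.1%), whereas genes of their lengths had 20.0% and 22.3%. STP1, a hexose symporter of the plasma membrane, lost 500 bp in each of 3 regions, 1 of them upstream of the gene (chr1:3774501-3775000). ERDL6, a sugar transporter of the vacuole membrane, also lost 3 regions of 500 bp, and STP4 lost 1 region of 1500 bp (chr3:6935001-6936500). All 3 genes had a WUS-GR region, as had 33.3% of the family. The MtN21/EamA transporters, which move amino acids and other small molecules, had gain at 4 of 53 (7.55%, 2.97 to 17.9%, 21.9% at the same lengths) and loss at 8. Aquaporins, the water channels, had loss at 1 of 37 (2.70%, 0.479 to 13.8%, 14.5% at the same lengths), the gene PIP1A with 1500 bp, and gain at 5 (13.5%, 17.6% at the same lengths). ABC transporters had gain at 18 and loss at 18 of 81 (22.2% each, 23.1% at the same lengths).

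Genes with product names of late embryogenesis or dehydration proteins also leaned to loss, with 22 of 121 (18.2%, 12.3 to 26.0%, 12.4% at the same lengths) against 10 gained (8.26%, 4.55 to 14.5%, 14.8% at the same lengths). The group is mixed and takes in dehydrins, ERD4-type proteins and hydroxyproline-rich glycoproteins. The dehydrin gene ERD10 lost 1000 bp, or 58.7% of its body, and YLS9, annotated as a hydroxyproline-rich glycoprotein gene, lost 1000 bp, or 95.4%. Proteasome genes had loss at 14 of 54 (25.9%, 16.1 to 38.9%, 19.7% at the same lengths) and gain at 12 (22.2%). RAB GTPase genes, which direct vesicle traffic, had loss at 3 of 47 (6.38%, 2.20 to 17.2%, 14.7% at the same lengths) and gain at 7 (14.9%, 18.1% at the same lengths).

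In metabolism and the cell wall, UDP-glycosyltransferases had gain at 31 of 131 (23.7%, 17.2 to 31.6%, 19.2% at the same lengths), with 2500 bp at UGT76E11 and at UGT73B5 and 1500 bp at UGT78D2, an enzyme of flavonol and anthocyanin glycosylation. Cytochromes P450 were near the overall shares, with 39 of 248 gained (15.7%, 19.7% at the same lengths) and 42 lost (16.9%, 16.8% at the same lengths). CYP78A5, which promotes organ growth from the shoot apex, gained 1000 bp at chr1:4703501-4704500. Cellulose synthases and their relatives had gain at 11 of 35 (31.4%, 18.6 to 48.0%, 25.4% at the same lengths), CESA5 with 2000 bp and CESA1 with 1000 bp. GDSL lipases had gain at 8 of 101 (7.92%, 4.07 to 14.9%), and pectin lyases, methylesterases and their inhibitors at 27 of 252 (10.7%, 7.47 to 15.1%), each below the 19.1% and 17.3% at their lengths. SAUR genes had loss at 4 of 78 (5.13%, 6.59% at the same lengths) and gain at 8 (10.3%, 8.03% at the same lengths). Arabinogalactan and extensin genes had loss at 8 of 113 (7.08%, 11.2% at the same lengths) and gain at 16 (14.2%, 13.8% at the same lengths).

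Some large families of short genes had few changes. Defensin-like and cysteine-rich peptides had gain at 1 of 193 genes (0.518%) and loss at 5 (2.59%), and the pollen and egg peptides of the ECA1 and self-incompatibility type had gain at 1 of 148 and loss at 7. Lipid transfer and seed storage proteins had gain at 4 of 134 (2.99%) and loss at 7 (5.22%). Genes of their lengths had gain in 5.31%, 4.23% and 8.19% and loss in 5.17%, 4.62% and 7.04%, so that the loss at the ECA1 and self-incompatibility type (4.73%) was near the share at the same lengths. F-box proteins had gain at 70 of 653 (10.7%, 8.57 to 13.3%, 14.5% at the same lengths) and loss at 55 (8.42%, 6.53 to 10.8%, 11.7% at the same lengths). Pentatricopeptide repeat proteins, which process RNA in organelles, are a large family whose genes are not short, with a median of 2252 bp. They had gain at 63 of 278 (22.7%, 18.1 to 27.9%, 20.3% at the same lengths) and loss at 36 (12.9%, 9.50 to 17.4%, also 17.4% at the same lengths).

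**Figure D2:**
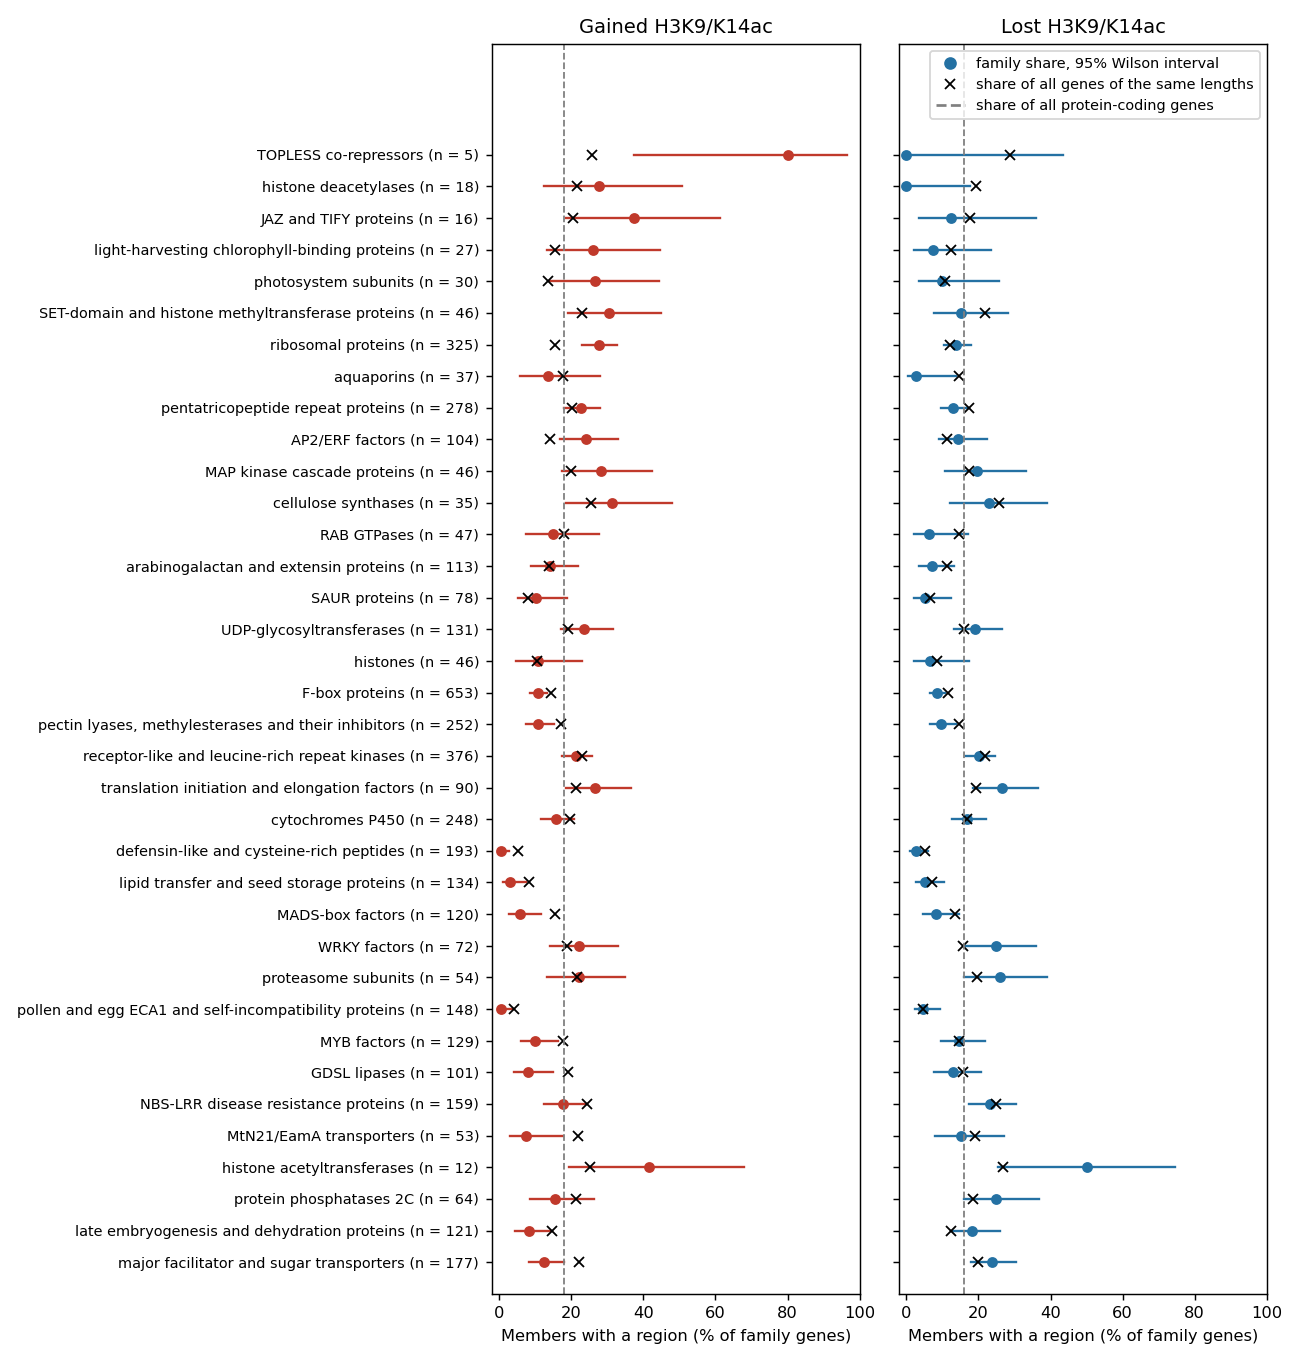
Share of family members (horizontal axes, % of the genes in each family) with a gained (left, red) or a lost (right, blue) H3K9/K14ac region, with 95% Wilson intervals; crosses are the shares of all genes of the same length deciles and dashed lines those of all coding genes, 18.1% and 16.1%. Families are ordered by gain minus loss, from TOPLESS co-repressors, with 4 of 5 members gained and none lost, to major facilitator and sugar transporters, with 12.4% gained and 23.7% lost.

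Some of the genes that write, erase or recruit erasers of the mark had regions themselves. For deacetylase gain and for acetyltransferase gain and loss, the intervals include the shares at the same lengths. The TOPLESS co-repressor genes had gain at 4 of 5 members and loss at none, which allows a lost share of up to 43.4% by the Wilson interval. TPL, the gene that names the family, gained 1000 bp with the midpoint in an intron (chr1:5419001-5420000), TPR1 gained 500 bp (chr1:30266501-30267000), and WSIP2, which is also called TOPLESS-related 4, gained 500 bp (chr3:5371501-5372000). TPR2 gained 1000 bp over its start (chr3:5731501-5732500) and 500 bp further on. The fifth member, TPR3, had neither. The 5 genes are long, with a median of 6336 bp, and the share of gain at their lengths was 25.9%. TPL, TPR1 and WSIP2 also had a WUS-GR region assigned to them, as had 23.1% of all coding genes. TPR2 and TPR3 had none assigned, but 1 WUS-GR region overlapped the window of each.

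Histone deacetylase genes had gain at 5 of 18 (27.8%, 12.5 to 50.9%) and loss at none of 18 (0 to 17.6%), against 21.6% and 19.3% at their lengths. HD1, also known as HDA19 and a partner of TOPLESS proteins, gained 2 regions of 500 bp, at chr4:17898001-17898500 and chr4:17899001-17899500. HDA6, a deacetylase of gene silencing, gained 500 bp at chr5:25317001-25317500. HDA15, HDT4 and the sirtuin gene SRT1 gained 500 bp each. All gained regions of deacetylase genes were single windows.

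Histone acetyltransferase genes had loss at 6 of 12 (50.0%, 25.4 to 74.6%) and gain at 5 (41.7%, 19.3 to 68.0%), against 26.9% and 25.2% at their lengths, and 3 genes had both. HAC1 and HAC5, acetyltransferases of the CBP type, lost 500 bp each, HAC1 just after its start (chr1:29724001-29724500) and HAC5 within its coding sequence (chr3:4148001-4148500). HAC12 of the same type gained 500 bp near its start (chr1:5714001-5714500) and lost 1000 bp near its end (chr1:5721001-5722000). The MYST pair differed, as HAM2 lost 1000 bp over its start (chr5:3024001-3025000) and HAM1 gained 1500 bp (chr5:25828501-25830000). ELO3, the catalytic subunit of Elongator, lost 1500 bp and gained 500 bp, HAG2 lost 500 bp near its start and gained 1000 bp at its end, and HAF2 gained 500 bp. HAG1, HAC2, HAC4 and HAF01 had no region. Only HAM1 of the 12 had a WUS-GR region (8.33%), where all coding genes had one in 23.1%.

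**Figure D3:**
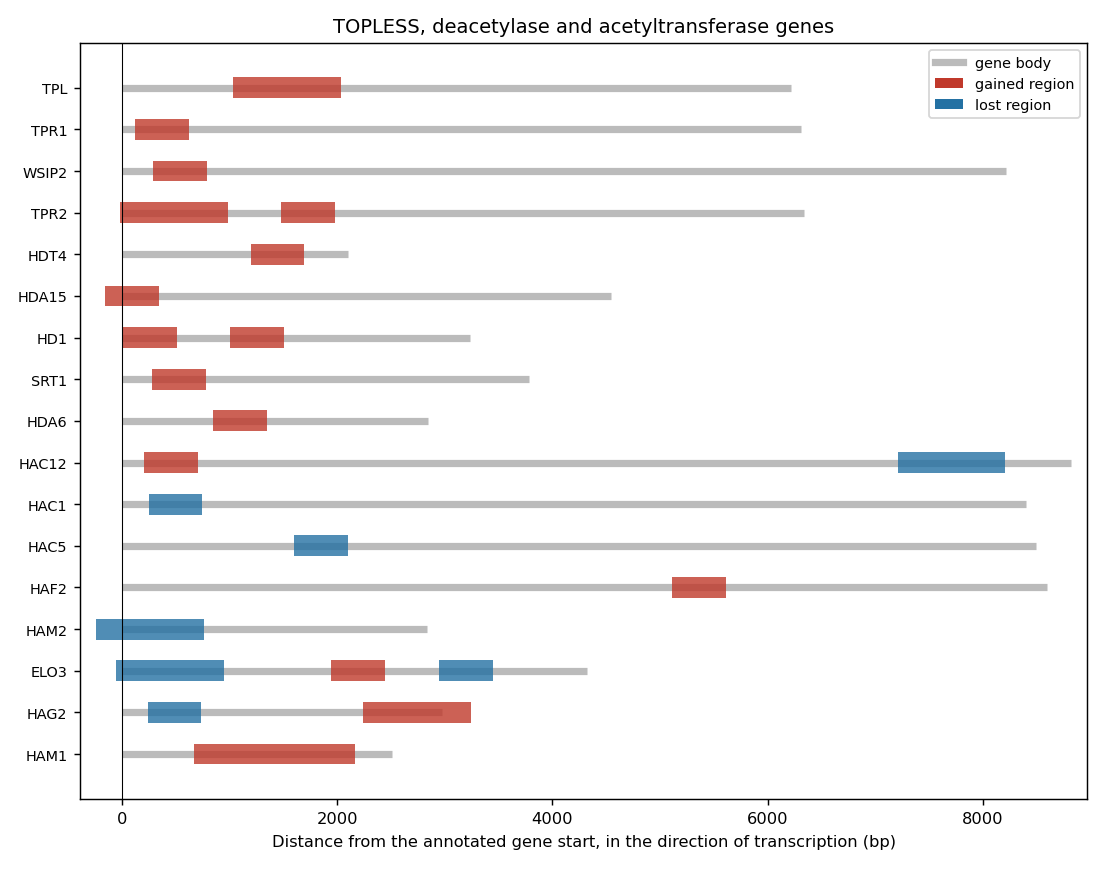
Gained (red) and lost (blue) regions along the TOPLESS, deacetylase and acetyltransferase genes that had any, by distance from the annotated gene start in bp in the direction of transcription; grey bars are gene bodies. Red stands alone in the TOPLESS and deacetylase genes, and lost regions of 500 or 1000 bp appear in 6 acetyltransferase genes.

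Among other chromatin genes, those with a SET domain or other histone methyltransferase annotation had gain at 14 of 46 (30.4%, 19.1 to 44.8%, 22.9% at the same lengths) and loss at 7. SDG14 had both, with 1500 gained and 1000 lost bases. Genes of the core histones and their variants had gain at 5 of 46 (10.9%) and loss at 3 (6.52%), near the 10.6% and 8.59% of genes of their lengths. The H2A genes differed from each other: HTA9 gained 1000 bp at chr1:19645001-19646000, and HTA8 lost 500 bp at its 3′ end, chr2:16219001-16219500.

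Gained acetylation was most extended at 2 genes of chromosome 2 with 4000 bp each. EMB3111 (AT2G01390, chr2:172176-174137), a gene for a tetratricopeptide repeat-like protein, lay wholly within the region chr2:172001-176000. GRP3S (AT2G05380, chr2:1966610-1968142) lay within chr2:1964501-1968500, most of it upstream of the gene, and it was also assigned a gained H3K27me3 region and a WUS-GR region. ABCG2 (AT2G37360), an ABC transporter, followed with 1 region of 3500 bp (chr2:15672001-15675500) over 83.3% of its body. AT5G65260, an RNA-binding protein gene, also had 3500 bp, in 2 regions. The gene GCL1 (AT5G65280), which is near AT5G65260, lay wholly in a separate region of 3000 bp (chr5:26085501-26088500).

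The other 5 of the 10 genes with most gained bases had 3000 bp each. They were AT5G47400, annotated as a sphingomyelin phosphodiesterase, the RNA-binding protein gene AT2G42240, the oxygenase gene AT4G33910, the pleckstrin homology domain gene AT2G30060, and ARLA1A, a small GTPase gene of the ADP-ribosylation factor type. Between 76.8% and 79.3% of these 5 gene bodies was covered. The value of 3000 bp was shared by 8 genes, and the coverage decided which were named. None of the 10 genes had a lost region, 4 had a WUS-GR region, and 5 were on chromosome 2. Both directions were found at 2.17% of all coding genes and at 595 of the 4970 genes with gain, after opposite regions closer than 73 bp had been removed. Chromosome 2 held 4317 of the 27444 coding genes and 1040 of the 5487 gained regions. A WUS-GR region was assigned to 29.2% of genes with gain only and 23.1% of all coding genes.

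Lost acetylation reached 3500 bp at 3 genes. AT2G02880, annotated as a mucin-like protein gene (chr2:841246-843629), lay wholly in chr2:841001-844500. AT5G40460, for a cyclin-dependent kinase inhibitor of the SMR3-like type, lost chr5:16199501-16203000, most of it upstream, and 70.6% of the gene was covered. BRCC36B, a gene of the Mov34/MPN/PAD-1 family, lost 2500 bp and 1000 bp over 66.7% of its body. At 3000 bp followed the F-box gene AT2G41170, ALDH3I1, an aldehyde dehydrogenase gene, and GSH1, the gene for the enzyme of the first step of glutathione synthesis, whose lost regions (chr4:12104001-12104500 and chr4:12105001-12107500) covered 54.0% of its body.

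With 2500 bp each, MED32, a subunit gene of the mediator complex, CAO and the C1 domain gene AT3G11385 were covered whole, and a further C1 domain gene, AT3G07000, to 95.5%. In all, 20 genes shared the value of 2500 bp. None of the 10 had a gained region, 5 had a WUS-GR region, and 3 were on chromosome 2. Gain and loss together were found at 2.17% of all coding genes and at 595 of the 4419 genes with loss, after the same removal of close opposite regions. Chromosome 2 held 710 of the 5110 lost regions. A WUS-GR region was assigned to 35.1% of genes with loss only and 23.1% of all coding genes. AT3G11385 was also assigned a region of lost H3K27me3.

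The largest changes in both directions at 1 gene were at HWS, an F-box gene of organ growth, which gained 2000 bp upstream (chr3:22789501-22791500) and lost 500 and 1000 bp within the gene. AT2G41080 and AT3G15430 gained acetylation over the earlier part and lost 1000 bp at the end. KAO2, a gene of gibberellin synthesis, and the leucine-rich repeat gene AT2G34930 had the reverse order, with loss first and 1000 gained bases at the end.

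**Figure D4:**
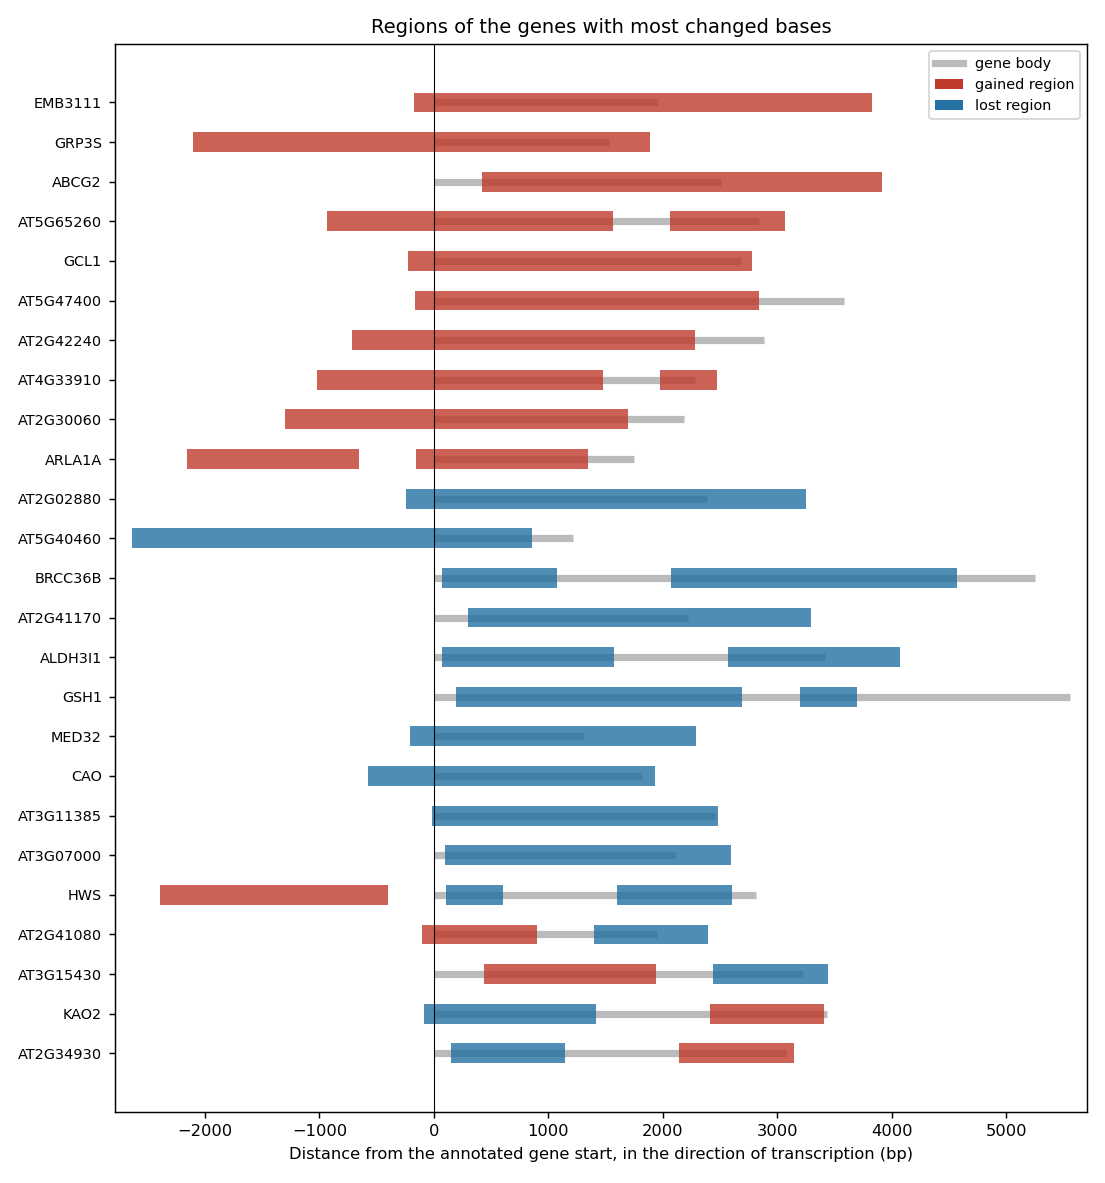
Gained (red) and lost (blue) regions of the 10 genes with most gained bases, the 10 with most lost bases and the 5 with most bases in both directions, by distance from the annotated gene start in bp in the direction of transcription; grey bars are gene bodies. EMB3111 and GRP3S have 4000 gained bases, AT2G02880, AT5G40460 and BRCC36B 3500 lost bases, and the 5 lowest genes have both colours in separate parts.

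Genes that do not code for proteins had few regions assigned. A midpoint inside a coding gene went to that coding gene first, which lowers the shares of overlapping non-coding genes. No share at the same lengths was computed for them, and the shortest decile of coding genes had gain in 3.28% and loss in 3.97%. Pseudogenes had gain in 0.945% and loss in 1.74% of 3917, and long non-coding RNA genes in 1.49% and 2.33% of 3480. MicroRNA genes had gain at 2 of 326 (0.613%, 0.168 to 2.21%) and loss at 10 (3.07%, 1.67 to 5.55%). They are named here with their values already seen. The lost ones were MIR161 with 1500 bp, MIR166a with 1000 bp, and MIR157d, MIR167a, MIR171c, MIR319a, MIR403, MIR447a, MIR779 and MIR824 with 500 bp each, and the gained ones were MIR156c and MIR169b with 500 bp each. MIR166a lies in chr2:19176001-19177000, MIR167a in chr3:8108001-8108500 and MIR319a partly in chr4:12353001-12353500. These microRNAs are known to act on class III homeodomain factors, auxin response factors and TCP factors, respectively. Of 4 ribosomal RNA genes, 3 had gain, but the repeated copies of ribosomal DNA make reads at these loci hard to place.

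The direction of change varied along and between chromosomes. Lost regions made up 40.6% of the changed regions of chromosome 2 (710 lost and 1040 gained, interval 38.3 to 42.9%) and between 47.5% and 51.5% on the other chromosomes. Chromosome 2 had 149 gained windows per Mb, compared with 91.4 to 116 on the other chromosomes, whereas its 113 lost windows per Mb compared with 88.6 to 106 and its 219 coding genes per Mb with 225 to 235. It also had the largest removed shares for closeness of gain and loss, 48.0% of gained and 56.9% of lost merged regions, against 30.5 to 47.4% elsewhere. Whether a chromosome-wide difference between the precipitated samples plays a part was not tested.

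Lost regions made up a smaller share near chromosome ends. It was 42.0% (39.3 to 44.8%) within 1 Mb of an end, 44.9% from 1 to 3 Mb, 48.9% from 3 to 6 Mb and 51.1% (49.6 to 52.6%) beyond 6 Mb. On chromosome 2 the shares ranged only from 36.9% to 41.8%. The 4 distance classes were chosen after the positions had been seen.

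**Figure D5:**
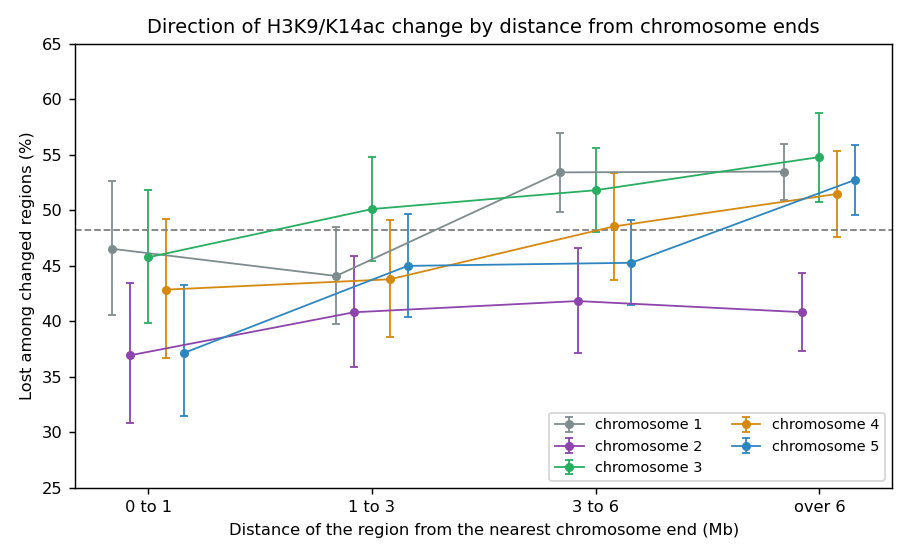
Lost regions as a share of all changed H3K9/K14ac regions (vertical axis, %, starting at 25) by distance from the nearest chromosome end in Mb, for each of the 5 chromosomes, with 95% Wilson intervals and the overall 48.2% as a dashed line. Chromosome 2 stays between 36.9% and 41.8% in all 4 classes.

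Among the regions kept, the next region on the chromosome had the same direction in 52.2% of 10592 pairs, where the overall shares give 50.1%. Adjoining windows had been merged and opposite regions closer than 73 bp removed before this count. It therefore cannot show how the closest neighbours behave. The longest run was of 15 gained regions within 120 kb (chr2:8986501-9106000), which took in ERF53 and the synaptotagmin gene SYTA. A run of 13 gained regions within 71 kb (chr5:26766001-26837000) held HEC1, a bHLH gene of the shoot apex and fruit, the AP2 gene TOE3 and the D-type cyclin gene CYCD3;2. HD1 lay in a further run of 13 gained regions (chr4:17853501-17957000). The longest lost runs had 14 regions each but extended over 1803 kb of chromosome 1 and 1725 kb of chromosome 5, where changed regions were sparse.

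The other lists of the series were set beside the acetylation classes. A WUS-GR region was assigned to 38.8% of the 595 genes with both directions (35.0 to 42.8%), 35.1% of the 3824 genes with loss only (33.6 to 36.6%), 29.2% of the 4375 with gain only (27.9 to 30.6%) and 18.7% of the 18650 with neither (18.1 to 19.2%). The order of loss only, gain only and neither held in all 10 length deciles. Nucleosome or chromatin accessibility was not analysed here.

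Lost H3K27me3, the silencing mark of Polycomb, was assigned to 5.30% of genes with gained acetylation only (4.68 to 6.01%) and 6.07% of genes with loss only (5.35 to 6.87%), both below the 8.13% of genes with neither (7.75 to 8.53%) and the 7.29% of all coding genes. Gained H3K27me3 was assigned to 1.26%, 2.09% and 2.09% of these classes, against 1.93% of all. At the level of regions, 105 gained and 92 lost acetylation regions overlapped lost H3K27me3 (1.91% and 1.80%), which itself covered 1.93% of the genome. Gained H3K27me3, which covered 0.375% of the genome, was overlapped by 32 gained (0.583%, 0.413 to 0.822%) and 31 lost acetylation regions (0.607%, 0.428 to 0.860%). A region counted as overlapping when any base was shared, so these shares and the shares of the genome covered are unlike measures. Neither an excess nor a lack of overlap can be read from them.

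Base composition moved with the direction of change. The mean GC content of 500 bp windows was 40.2% in gained regions, 38.2% in lost regions and 36.0% over the genome, and coding sequence made up 52.7%, 44.8% and 28.3% of these windows. Among windows with coding sequence at the centre, the means were 42.6%, 41.2% and 40.7%. The GCC-box (GCCGCC) was in 12.6% of gained, 8.29% of lost and 5.18% of all windows, the repeat GAGAGA in 48.7%, 45.0% and 36.6%, and the telo-box in 9.89%, 8.87% and 6.24%. The evening element (AAAATATCT), which is rich in A and T, had the reverse order, with 1.39%, 1.64% and 2.40%. The W-box was in 19.1%, 18.5% and 18.9%, and the auxin response element (TGTCTC) in 28.5%, 28.2% and 24.7%. The site II element was in 7.12%, 5.55% and 7.38% and the G-box core (CACGTG) in 6.12%, 5.04% and 5.34%. The part of base composition in which windows were listed was not tested.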

How the data were processed

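Per the labels, the antibody was against H3 acetylated at K9 and K14, although a further label of the same samples names H3K9ac only, and the antibody entry was followed. The authors checked reads with FastQC, aligned them to TAIR10 with BWA, and compared the induced and control samples with hiddenDomains. The deposited files hold positions of 500 bp windows, except 1 window of 330 bp at a chromosome end, with no score, so the depth is unknown. Gained and lost windows were merged, regions closer than 73 bp were removed, and midpoints were assigned to the 37899 nuclear genes of the RefSeq annotation of the same chromosomes, a coding gene first. Shares carry 95% Wilson intervals (Python 3.11.15, numpy 2.4.6). The code was tested on simulated regions. Named genes were the 10 with most gained and most lost bases (ties by covered share), the 5 with most in both directions, up to 4 per family, and changed acetyltransferases, deacetylases and TOPLESS genes. The ribosomal protein genes with sequences shown were outside these rules. Members and lists were chosen with earlier results of these data known. Family word patterns were corrected, and the families to describe chosen, after counts had been seen. The paper's methods differ from the labels in the dexamethasone concentration, and the labels were followed. The control precipitation list was not used.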

Additional observations from a re-analysis of the deposited data

How the results depend on the processing

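No paired analysis was possible because with 1 list in a group there are no numbered samples to pair. Lost regions were 48.2% of changed regions, 43.2% among regions of at least 1000 bp and 49.7% without chromosome 2, a setting chosen after seeing the data. The share of coding genes with gain (18.1%) became 29.3% with all merged regions kept, 16.3% when gained and lost regions up to 500 bp apart were removed, 5.40% with regions of at least 1000 bp, 33.1% when every gene whose window was overlapped counted, and 17.5% without chromosome 2. The share with loss (16.1%) became 27.3%, 14.4%, 4.06% and 28.8% under the first 4 of these, 15.4% when 250 bp of the body had to be overlapped and 16.6% when only coding genes received regions. Of the 10 genes with most gained bases, 2 were kept under window overlap and 6 under body overlap. Of the 10 with most lost bases, 5 were kept with all merged regions and 4 under window overlap. Family shares were compared here with the share of all genes and not with the share at the same lengths. This check therefore takes no account of gene length. Of 44 family shares, 34 stayed on their side of the share of all genes in all 8 settings. The others crossed it. Under window overlap these were histone gain (34.8% against 33.1%), pentatricopeptide loss (30.9% against 28.8%) and late embryogenesis loss (24.8% against 28.8%). With regions of at least 1000 bp they were photosystem gain (3.33% against 5.40%), deacetylase gain (0%), proteasome loss (3.70% against 4.06%), receptor kinase loss (3.99%) and cytochrome P450 loss (4.03%). With all merged regions they were RAB loss (27.7% against 27.3%) and P450 loss (26.2%), under body overlap P450 loss (15.3% against 15.4%), and without chromosome 2 WRKY gain (16.1% against 17.5%). The cause was not tested.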
